A study of Mus musculus with 14 samples.

Results

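Untreated Th17 cultures were set against untreated Th1 cultures of mouse CD4 T cells, 3 arrays against 2, out of 14 arrays in the series. The arrays were taken by their sample titles. The features were the 34958 probe sets that carry exactly 1 gene symbol, of 45101 on the array; 13 of them are array controls and were left out, and the other 34945 represent 18193 genes, of which 10916 were bright enough to be tested. CD4 T cells came from spleen, peripheral and mesenteric lymph nodes, and the labels name no strain, age or genotype. The Th17 cultures received human IL-2 at 100 U/ml, human TGF-beta1 at 5 ng/ml, mouse IL-6 at 20 ng/ml, mouse IL-1 beta, IL-23 and IL-21 at 10 ng/ml each, mouse TNF-alpha at 20 ng/ml and antibodies that block IL-4 (10 ng/ml) and interferon gamma (10 ug/ml). The Th1 cultures received the same IL-2, mouse IL-12 at 10 ng/ml and the anti-IL-4 antibody at 10 ug/ml, and no antibody to interferon gamma is listed for them. The labels give 5 days of culture for both and the series' design text 6 to 7 days. The groups therefore differ in 6 added cytokines on the Th17 side, 1 on the Th1 side and 1 antibody at once, besides the listed amount of anti-IL-4. The labels do not say that the arrays of a group stem from different mice or wells; the tests therefore rest on array-to-array spread, which may be technical.

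Helper T cells take on different programs according to the cytokines present when they are activated. IL-12, which acts through STAT4, and interferon gamma switch on the T-box factor T-bet (gene Tbx21), and the resulting Th1 cells make interferon gamma, the IL-12 receptor beta 2 chain and cytotoxic proteins. TGF-beta together with IL-6 acts through SMAD proteins and STAT3, and the resulting Th17 cells make IL-17 cytokines and carry the chemokine receptor CCR6. TGF-beta with IL-2 and without IL-6 favours regulatory T cells, which carry FOXP3. Il17f, Il22 and Il23r are named by no probe set that carries 1 symbol, and were not analysed here.

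Values below are normalized signals in the linear units of the array, and every log2 difference is the Th17 minus the Th1 mean of log2(signal + 3) after quantile normalization, a scale on which changes at low signal come out too small; ± gives the standard error. Where a call was lost without 1 of the 5 arrays, with signals as deposited or with the probe sets of a gene averaged, that adjusted p follows the gene. A gene passed when limma's adjusted p (Benjamini-Hochberg, over all 10916 genes) was under 0.05. Before normalization the arrays were not on a common scale. Trimmed means were 67.4 to 116 on the Th17 arrays and 53.2 and 55.6 on the Th1 arrays, and the median gene was 0.62 higher on the log2 scale in the signals as deposited, against -0.00198 after normalization. The 3-prime probe set of 18S ribosomal RNA read 2809 to 4140 on the Th17 arrays and 298.4 and 609 on the Th1 arrays. Pearson's r between normalized arrays was 0.976 to 0.983 within the Th17 group, 0.95 between the Th1 arrays and 0.913 to 0.946 between the groups, so the Th1 pair was the less alike. Label protocols differ in wording between Th17 and Th1 samples, and a batch and the subset cannot be told apart.

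Of the 10916 genes 721 passed (6.6%), 326 higher in Th17 cultures (2.99% of genes tested) and 395 lower (3.62%). The median log2 difference was 1.35 among the higher genes and -1.23 among the lower ones. A log2 difference of at least 2 was reached by 87 higher genes, and one of -2 or below by 61 lower genes. In every one of the 721 genes the 3 Th17 arrays all lay beyond both Th1 arrays, as they did in 20.3% of all genes tested upwards and in 23.6% downwards. In 45 of the higher genes the Th1 mean, and in 28 of the lower genes the Th17 mean, lay under 9.11, the signal below which genes were not tested, so for these the size of the difference depends on the pseudocount. Among the genes described below they include Ccl20, Gpr15, Il17a, Il9, Ccr8, Kit and Klre1 on the higher side, and Eomes, Gzmd, Gzme, Havcr2, Mt3, Prag1 and Slc17a6 on the lower side. The split depends on the scaling. Signals as deposited gave 2906 higher and 119 lower genes, with all 326 of the higher genes and 113 of the 395 lower ones again among them. Arrays scaled to a common trimmed mean gave 311 higher and 425 lower genes. The count also rested on single arrays, being 393, 379 and 372 without Th17 replicates 1, 2 and 3, and 1011 and 218 without Th1 replicates 1 and 2.

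**Figure D1:**
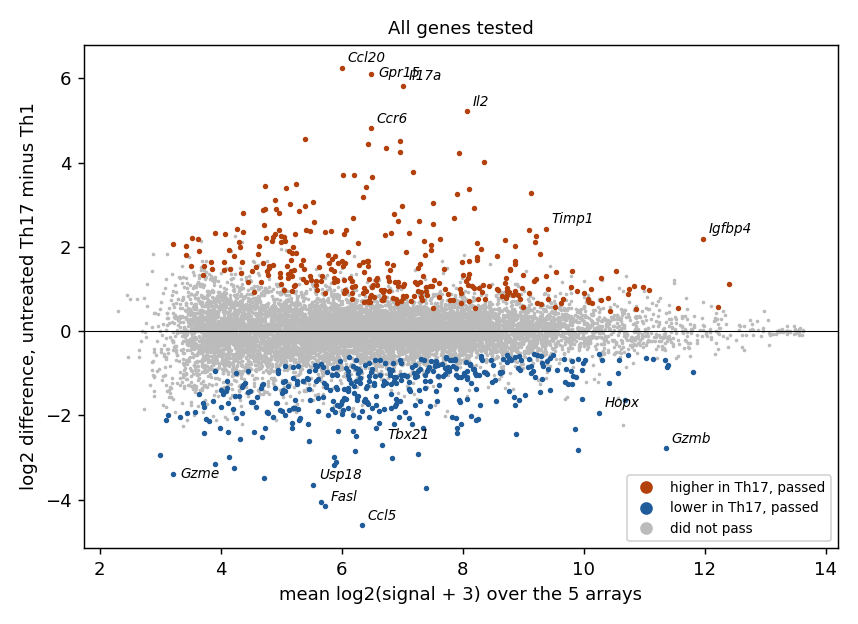
Each point is a gene, placed by its mean log2(signal + 3) over the 5 arrays (x axis) and its log2 difference between untreated Th17 and untreated Th1 cultures (y axis); the 326 genes that passed higher in Th17 are orange-brown, the 395 that passed lower are blue and the others grey. Ccl20 lies at 6.26 and Ccl5 at -4.61 with the pseudocount of 3. With one of 16 Ccl20 came to 4.41, below Il17a at 4.75 and Gpr15 at 4.64, and Ccl5 to -3.87.

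The label genes separated the groups. Il17a, the cytokine that names the lineage, read 716, 641 and 598 in Th17 cultures, against 6.62 and 10.8 in Th1 cultures. The groups did not overlap, and the log2 difference was 5.82 ± 0.33 (adjusted p = 1.97e-06). Ccr6, the chemokine receptor of Th17 cells, read 298, 313 and 409.7 in Th17 cultures, against 9.98 and 8.29 in Th1 cultures, with a log2 difference of 4.81 ± 0.35 (adjusted p = 5.38e-06). Ccl20, which encodes the ligand of CCR6, read 439, 238 and 455 in Th17 cultures, against 2.36 and 1.26 in Th1 cultures, with a log2 difference of 6.26 ± 0.53 (adjusted p = 1.97e-05). Tbx21, the lineage factor of Th1 cells, went the other way, at 79.1, 16.3 and 66.8 in Th17 cultures, against 388 and 243 in Th1 cultures. Its log2 difference was -2.69 ± 0.49 (adjusted p = 0.0062), and Th17 replicate 2 was the lowest of the 5 arrays. In a bulk culture, fewer cells of a type and less RNA per cell cannot be told apart, here and in all results that follow.

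Untreated Treg cultures, which received TGF-beta and IL-2, help to place these 4 genes; they share no array with the Th1 side, and their comparison with Th17 uses the same Th17 arrays. Il17a read 1.37 and 7.398 on the 2 Treg arrays, close to the Th1 level. Ccr6 read 102 and 104 and Ccl20 31.9 and 17.7, in both cases between the Th1 and the Th17 arrays, and the log2 differences of Th17 minus Treg were 1.68 ± 0.35 (adjusted p = 0.0073) and 3.77 ± 0.53 (adjusted p = 0.000592). Tbx21 read 194 and 187 there, above every Th17 array and below both Th1 arrays.

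The Ccr6 promoter is shown because, among the lineage genes that passed, its window alone held a match to the ROR response element. The windows are RefSeq's, on GRCm38.p6, and run 250 bases before to 50 after a gene's start. Capitals mark the match to AA, any base and TAGGTCA, searched on both strands, which lies here on the opposite strand.
Ccr6 (chr17:8235793-8236092, plus strand): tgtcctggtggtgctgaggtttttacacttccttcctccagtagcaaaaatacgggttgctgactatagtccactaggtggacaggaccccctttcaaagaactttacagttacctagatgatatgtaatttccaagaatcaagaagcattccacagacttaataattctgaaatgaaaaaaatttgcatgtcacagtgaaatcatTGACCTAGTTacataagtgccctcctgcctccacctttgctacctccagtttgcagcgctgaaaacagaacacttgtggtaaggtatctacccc
That motif was held by 0.184% of the windows of genes tested and 0.573% of the windows of genes that passed higher, which is 2 of 349 windows. Genes that passed lower held it in 0.242% of windows, and the 6 windows of the Th17 cytokine list held none. The other Ccr6 window held no match. A match is a description of letters, and no binding was measured.

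Among Th17 cytokines and secreted factors 5 of 6 members tested were higher in Th17 cultures and none lower (3 higher without Th17 replicate 2 or 3, or without Th1 replicate 2), and the median log2 difference of the list was 3.60. Besides Il17a and Ccl20 these were Il9, Il21 and Csf2. Counts for this list and those below stand beside 2.99% of all genes tested that passed higher and 3.62% that passed lower. Members of all lists were chosen with earlier results of these data known, so counts and medians are descriptions. Il9, which encodes a cytokine of mast cell and mucosal responses, read 139.7, 255 and 86.7 in Th17 cultures, against 1.11 and 6.604 in Th1 cultures, with no overlap and a log2 difference of 4.57 ± 0.45 (adjusted p = 7.57e-05). Il21, which encodes a cytokine that Th17 and follicular helper cells make and that was itself added to the Th17 cultures as protein, read 917, 1054 and 1225 in Th17 cultures, against 460.5 and 84.8 in Th1 cultures. Its log2 difference was 2.39 ± 0.52 (adjusted p = 0.017), and Th1 replicate 1 read far above Th1 replicate 2. Csf2, which encodes GM-CSF, showed the same split of the Th1 arrays, at 270.0, 312 and 381 in Th17 cultures, against 131 and 17.2 in Th1 cultures, with a log2 difference of 2.62 ± 0.59 (adjusted p = 0.019). Il21 did not pass without Th17 replicate 2 or 3, or without Th1 replicate 2 (adjusted p = 0.051, 0.058 and 0.17). Csf2 did not pass without Th17 replicate 2 or 3, or without Th1 replicate 2 (adjusted p = 0.057, 0.067 and 0.2). Il24, the other member tested, read 619, 757 and 616 in Th17 cultures, against 635 and 599 in Th1 cultures and did not pass (0.10, adjusted p = 0.91).

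Among the receptors and surface proteins linked to Th17 cells 5 of 9 members tested were higher and none lower (4 higher without Th1 replicate 2), with a list median of 2.18. Pdpn, which encodes the glycoprotein podoplanin, read 342, 388 and 334 in Th17 cultures, against 26.3 and 7.46 in Th1 cultures, with a log2 difference of 4.35 ± 0.36 (adjusted p = 1.68e-05). The paired membrane protein genes Tmem176a and Tmem176b read 269, 301 and 295 in Th17 cultures, against 34.1 and 34.6 in Th1 cultures, and 404, 498 and 374 in Th17 cultures, against 47.3 and 50.02 in Th1 cultures. All Th17 arrays lay several fold above all Th1 arrays for both, with log2 differences of 2.96 ± 0.33 (adjusted p = 0.000212) and 3.04 ± 0.27 (adjusted p = 2.36e-05). Il6ra, which encodes the ligand-binding chain of the IL-6 receptor, read 329, 415 and 339 in Th17 cultures, against 91.6 and 64.2 in Th1 cultures, with a log2 difference of 2.18 ± 0.39 (adjusted p = 0.0059). Il6ra did not pass without Th1 replicate 2 (adjusted p = 0.081). Il12rb1, the chain that the IL-12 and IL-23 receptors share, had a log2 difference of -0.11 (adjusted p = 0.82) and Il17re of 1.26 (adjusted p = 0.12), and neither passed.

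Of 11 Th17 transcription factors tested 5 were higher and none lower (3 higher without any 1 of the Th17 replicates, 1 without Th1 replicate 2), with a list median of 0.88. Ahr, the aryl hydrocarbon receptor, a ligand-activated factor known to promote IL-22 in Th17 cells, read 309, 288 and 288 in Th17 cultures, against 12.3 and 9.44 in Th1 cultures. The 3 Th17 arrays were nearly level, and the log2 difference was 4.43 ± 0.34 (adjusted p = 8.53e-06). Maf, which encodes c-MAF, a factor for Il10 and Il21, read 683, 716 and 565 in Th17 cultures, against 130.3 and 53.1 in Th1 cultures, with a log2 difference of 2.92 ± 0.46 (adjusted p = 0.0026). Irf4 and Batf, which encode partners at AP-1 composite sites that Th17 development needs, differed less, at 1.27 ± 0.23 (adjusted p = 0.0056) and 0.80 ± 0.19 (adjusted p = 0.028). Irf4 read 1460.0, 1992 and 1917 in Th17 cultures, against 938 and 576 in Th1 cultures, and Batf 540.5, 511 and 520.3 in Th17 cultures, against 372 and 241 in Th1 cultures. Stat3, which carries the IL-6 signal, read 1172, 1378 and 1452 in Th17 cultures, against 725 and 847 in Th1 cultures, with a log2 difference of 0.76 ± 0.20 (adjusted p = 0.043). Maf and Irf4 did not pass without Th1 replicate 2 (adjusted p = 0.052 and 0.091). Batf did not pass without Th17 replicate 1, 2 or 3, or without Th1 replicate 2 (adjusted p = 0.086, 0.074, 0.078 and 0.31). Stat3 did not pass without Th17 replicate 1, 2 or 3, without Th1 replicate 1 or 2, or with probe sets averaged (adjusted p = 0.061, 0.12, 0.13, 0.14, 0.14 and 0.31), and missed the threshold under 15 of 26 alternatives in all. Rora, which encodes an orphan nuclear receptor linked to Th17 cells, read 334, 494 and 474 in Th17 cultures, against 120.1 and 119 in Th1 cultures, apart in all arrays, yet its log2 difference of 1.81 ± 0.51 (adjusted p = 0.052) did not pass. Rora passed under 9 of 26 alternatives. Among them were signals as deposited (adjusted p = 0.0014), the 5 arrays fitted alone after normalization across 14 (adjusted p = 0.0024) and probe sets averaged (adjusted p = 0.018).

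Of 16 feedback and response genes of IL-6 and STAT3 tested 7 were higher and none lower (1 higher without Th1 replicate 2, 3 without Th17 replicate 1, 4 without Th17 replicate 2 or 3), with a list median of 0.75. The largest difference was that of Timp1, which encodes a secreted inhibitor of metalloproteinases, at 1131, 1532 and 1286 in Th17 cultures, against 214 and 270.1 in Th1 cultures, with a log2 difference of 2.43 ± 0.31 (adjusted p = 0.000734). Timp1 read 23.00 and 27.7 on the Treg arrays, so that Th1 cultures lay between Treg and Th17 cultures. Lif, which encodes a cytokine of the IL-6 family, read 652, 918 and 718 in Th17 cultures, against 264 and 104 in Th1 cultures, with a log2 difference of 2.16 ± 0.37 (adjusted p = 0.0039). Socs3, the feedback inhibitor of IL-6 signalling, read 1638, 1590.0 and 903 in Th17 cultures, against 680.2 and 358 in Th1 cultures. Its log2 difference was 1.42 ± 0.34 (adjusted p = 0.027), and Th17 replicate 3 was the lowest of the Th17 arrays. Lif did not pass without Th1 replicate 2 (adjusted p = 0.064). Socs3 did not pass without Th17 replicate 1 or 2, or without Th1 replicate 2 (adjusted p = 0.098, 0.097 and 0.3). Members that did not pass include Il6st, the shared signalling chain (0.37, adjusted p = 0.26), Junb (0.73, adjusted p = 0.12) and Pim1 (0.08, adjusted p = 0.85).

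TGF-beta signalling and feedback genes moved in 1 direction among those that passed, with 7 of 17 members tested higher and none lower (5 higher without Th1 replicate 2), and a list median of 0.78. Itgae encodes the alpha E integrin chain, which TGF-beta induces on T cells at epithelia. It read 381, 112 and 195 in Th17 cultures, against 9.07 and 17.4 in Th1 cultures, with a log2 difference of 3.72 ± 0.71 (adjusted p = 0.0083), and 326 and 131 on the Treg arrays. Skil, which encodes a SMAD corepressor induced by TGF-beta, read 866, 1106 and 1210.0 in Th17 cultures, against 294 and 197 in Th1 cultures, with a log2 difference of 2.11 ± 0.26 (adjusted p = 0.000514). Pmepa1 and Ldlrad4, whose products both dampen SMAD activation, read 358, 258 and 296 in Th17 cultures, against 112 and 53.2 in Th1 cultures, and 63.7, 45.9 and 61.6 in Th17 cultures, against 12.6 and 7.002 in Th1 cultures. Their log2 differences were 1.92 ± 0.30 (adjusted p = 0.0025) and 2.25 ± 0.29 (adjusted p = 0.000638). The receptor gene Tgfbr2 read 385, 362 and 407 in Th17 cultures, against 194 and 182 in Th1 cultures, with a log2 difference of 1.02 ± 0.16 (adjusted p = 0.0028). Bambi, which encodes a decoy receptor, read 147, 177 and 129 in Th17 cultures, against 27.9 and 15.4 in Th1 cultures, with a log2 difference of 2.68 ± 0.51 (adjusted p = 0.0082). On the Treg arrays, whose cultures also received TGF-beta, Skil read 623 and 662, Pmepa1 145 and 159.5, Ldlrad4 35.1 and 40.02 and Tgfbr2 434 and 446, all above the Th1 arrays, while Bambi read 21.1 and 16.8, within the range of the Th1 arrays. Treg and Th1 cultures also differ in the listed IL-12 and anti-IL-4, and the part of TGF-beta was not tested. Ldlrad4 and Tgfbr2 did not pass with probe sets averaged (adjusted p = 0.071 and 0.98). Bambi did not pass without Th1 replicate 2 (adjusted p = 0.11). The ligand gene Tgfb1 (-0.14, adjusted p = 0.67) and the signal carriers Smad2 (0.20, adjusted p = 0.56), Smad3 (0.78, adjusted p = 0.086) and Smad4 (0.28, adjusted p = 0.63) did not pass.

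Of 20 genes linked to regulatory T cells 8 were higher and 2 lower in Th17 cultures (0 lower without Th1 replicate 1, 1 without Th17 replicate 2 or Th1 replicate 2), with a list median of 0.51. The count of higher members was 6 without any 1 of the Th17 replicates. Foxp3, the lineage factor, read 85.3, 55.3 and 108 in Th17 cultures, against 14.8 and 10.9 in Th1 cultures. Its log2 difference from Th1 was 2.40 ± 0.33 (adjusted p = 0.0013), while the Treg arrays read 283 and 381 and Th17 lay below them by a log2 difference of -2.0 ± 0.33 (adjusted p = 0.0019). Nt5e, which encodes CD73, the enzyme that makes adenosine from AMP, read 578, 542 and 659 in Th17 cultures, against 49.7 and 69.8 in Th1 cultures, with a log2 difference of 3.26 ± 0.32 (adjusted p = 7.62e-05). Nrp1, a semaphorin receptor gene, read 161, 239.7 and 190.1 in Th17 cultures, against 35.6 and 39.3 in Th1 cultures, and Gpr83, an orphan receptor gene, 221, 239.8 and 294 in Th17 cultures, against 37.7 and 30.5 in Th1 cultures. They differed by 2.29 ± 0.29 (adjusted p = 0.000638) and 2.78 ± 0.37 (adjusted p = 0.000908). Of the 2 lower members, Penk, which encodes the precursor of enkephalins, read 25.8, 15.4 and 28.6 in Th17 cultures, against 318 and 146 in Th1 cultures, with a log2 difference of -3.10 ± 0.61 (adjusted p = 0.01). Entpd1, which encodes CD39, the enzyme upstream of CD73, read 22.5, 12.4 and 24.5 in Th17 cultures, against 65.6 and 46.8 in Th1 cultures, with a log2 difference of -1.40 ± 0.33 (adjusted p = 0.023). Il10, the anti-inflammatory cytokine gene, read 343, 214 and 216 in Th17 cultures, against 145 and 8.503 in Th1 cultures, with a log2 difference of 2.62 ± 0.71 (adjusted p = 0.045). Here Th1 replicate 1 lay much closer to the Th17 arrays than Th1 replicate 2 did. Penk did not pass without Th1 replicate 1 (adjusted p = 0.058). Entpd1 did not pass without Th17 replicate 2, without Th1 replicate 1 or 2, with signals as deposited, or with probe sets averaged (adjusted p = 0.083, 0.095, 0.073, 0.12 and 0.52). Il10 did not pass without Th17 replicate 1, 2 or 3, without Th1 replicate 2, or with probe sets averaged (adjusted p = 0.14, 0.098, 0.095, 0.37 and 0.06), and missed the threshold under 17 of 26 alternatives in all. Il2ra (0.38, adjusted p = 0.44), Ctla4 (0.79, adjusted p = 0.18) and Ikzf2 (-0.27, adjusted p = 0.61) did not pass.

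Both cultures received IL-2 protein, and the Il2 gene itself was among the most different. It read 1419, 761 and 1401 in Th17 cultures, against 126 and 4.38 in Th1 cultures, with a log2 difference of 5.22 ± 0.86 (adjusted p = 0.0033), and Th1 replicates 1 and 2 were themselves far apart. The Treg arrays read 108 and 68.4. Of 11 genes of IL-2 and its receptor 3 were higher and none lower (1 without any 1 of the Th17 replicates or without Th1 replicate 2), and the list median was 0.38. The others were Socs2, a feedback inhibitor of STAT5 signals, at 1.43 ± 0.32 (adjusted p = 0.018), and Stat5a, at 0.76 ± 0.21 (adjusted p = 0.046). Socs2 did not pass without Th17 replicate 1, 2 or 3, or without Th1 replicate 2 (adjusted p = 0.055, 0.053, 0.054 and 0.21). Stat5a did not pass without Th17 replicate 1, 2 or 3, without Th1 replicate 2, or with probe sets averaged (adjusted p = 0.075, 0.14, 0.13, 0.34 and 0.063), and missed the threshold under 15 of 26 alternatives in all. The receptor chain genes Il2ra and Il2rb had log2 differences of 0.38 and 0.21 (adjusted p = 0.44 and 0.43).

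Receptors that direct T cells to tissues were measured in 23 members, of which 6 were higher and 1 lower in Th17 cultures (5 higher without Th17 replicate 1 or 2, or without Th1 replicate 2), with a median of 0.43. Among all genes tested 2.99% passed higher and 3.62% lower, so the single lower member is near the share of all genes. Gpr15, which brings T cells to the large intestine, read 604, 358 and 529 in Th17 cultures, against 5.32 and 2.99 in Th1 cultures, with a log2 difference of 6.11 ± 0.44 (adjusted p = 4.8e-06). The Treg arrays read 99.6 and 61.6, between the other groups, and Th17 exceeded them by 2.59 ± 0.44 (adjusted p = 0.002). The chemokine receptor genes Ccr4 and Ccr8, which also count among Th2 genes, read 86.2, 93.9 and 98.6 in Th17 cultures, against 28.2 and 28.6 in Th1 cultures, and 52.4, 39.8 and 56.8 in Th17 cultures, against 7.51 and 10.2 in Th1 cultures. Their differences were 1.61 ± 0.26 (adjusted p = 0.0033) and 2.15 ± 0.30 (adjusted p = 0.0014). The lower member was Itgb3, the beta 3 integrin chain, at 13.2, 9.56 and 19.1 in Th17 cultures, against 52.7 and 80.3 in Th1 cultures, with a log2 difference of -2.05 ± 0.31 (adjusted p = 0.0019), and 389 and 461 on the Treg arrays. Itgb3 did not pass with probe sets averaged (adjusted p = 0.087). Cxcr3, the chemokine receptor of Th1 cells, had a log2 difference of -0.67 and did not pass (adjusted p = 0.41), nor did the lymph node receptor gene Ccr7 (0.69, adjusted p = 0.46).

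Other lists met the lineage genes in part. Their counts stand beside 2.99% of all genes tested that passed higher and 3.62% that passed lower. Of 8 Th2 genes tested 2 were higher, both of them the chemokine receptors above, and Gata3, the Th2 lineage factor, read 47.6, 24.5 and 41.8 in Th17 cultures, against 45.8 and 79.6 in Th1 cultures, with overlapping arrays and a log2 difference of -0.68 ± 0.40 (adjusted p = 0.34). Il4 read 28.00, 27.5 and 17.4 in Th17 cultures, against 15.1 and 13.3 in Th1 cultures and did not pass (0.64, adjusted p = 0.39). Of 12 follicular helper genes 4 were higher and 1 lower (1 higher without Th1 replicate 2, 2 without Th17 replicate 1 or 3; 0 lower without Th17 replicate 1, 2 or 3 or without Th1 replicate 2). Tox2, which encodes an HMG-box factor, read 202, 247 and 198 in Th17 cultures, against 13.7 and 21.9 in Th1 cultures, with a log2 difference of 3.41 ± 0.45 (adjusted p = 0.000814). Bcl6, the lineage factor of follicular helper cells, differed by 1.28 ± 0.30 (adjusted p = 0.024). Bcl6 did not pass without Th17 replicate 1 or 3, or without Th1 replicate 1 or 2 (adjusted p = 0.094, 0.055, 0.061 and 0.14). Sh2d1a, the lower member, encodes the adaptor SAP, and its log2 difference of -0.66 turned to 0.04 in the signals as deposited. Sh2d1a did not pass without Th17 replicate 1, 2 or 3, without Th1 replicate 1 or 2, with signals as deposited, or with probe sets averaged (adjusted p = 0.12, 0.12, 0.1, 0.084, 0.23, 0.92 and 0.054), and missed the threshold under 17 of 26 alternatives in all.

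Several of the largest differences belonged to genes outside these programs. Cpd, which encodes carboxypeptidase D, read 322, 554 and 456 in Th17 cultures, against 16.6 and 15.8 in Th1 cultures, with a log2 difference of 4.51 ± 0.32 (adjusted p = 4.8e-06). Sgk1, which encodes a salt- and glucocorticoid-regulated kinase known to strengthen the IL-23 receptor in Th17 cells, read 842, 1184 and 970.4 in Th17 cultures, against 72.7 and 46.4 in Th1 cultures, with a log2 difference of 4.02 ± 0.50 (adjusted p = 0.000606). Cd86, a costimulatory ligand gene, read 148, 211 and 184 in Th17 cultures, against 15.1 and 7.72 in Th1 cultures, with a log2 difference of 3.71 ± 0.57 (adjusted p = 0.0021). In each of these the lowest Th17 array lay several fold above the highest Th1 array. Serpinb1a, which encodes an inhibitor of serine proteases, read 451, 394 and 374 in Th17 cultures, against 28.4 and 11.4 in Th1 cultures, and Crispld2, which encodes a secreted protein, 526, 1227 and 764 in Th17 cultures, against 94.4 and 15.5 in Th1 cultures. Their log2 differences were 4.26 ± 0.82 (adjusted p = 0.0086) and 4.22 ± 0.91 (adjusted p = 0.015). On the Treg arrays Crispld2 read 2.17 and 3.64, below the Th1 arrays, and Serpinb1a 272 and 116, above them. The chemokine gene Xcl1 read 1066, 142 and 449.7 in Th17 cultures, against 38.5 and 18.9 in Th1 cultures, with a log2 difference of 3.77 ± 1.00 (adjusted p = 0.042), with Th17 arrays that spanned a wide range. Serpinb1a did not pass without Th1 replicate 2 (adjusted p = 0.11). Crispld2 did not pass without Th17 replicate 2, or without Th1 replicate 2 (adjusted p = 0.06 and 0.21). Xcl1 did not pass without Th17 replicate 1 or 3, without Th1 replicate 1 or 2, or with probe sets averaged (adjusted p = 0.14, 0.11, 0.063, 0.28 and 0.054), and missed the threshold under 14 of 26 alternatives in all.

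**Figure D2:**
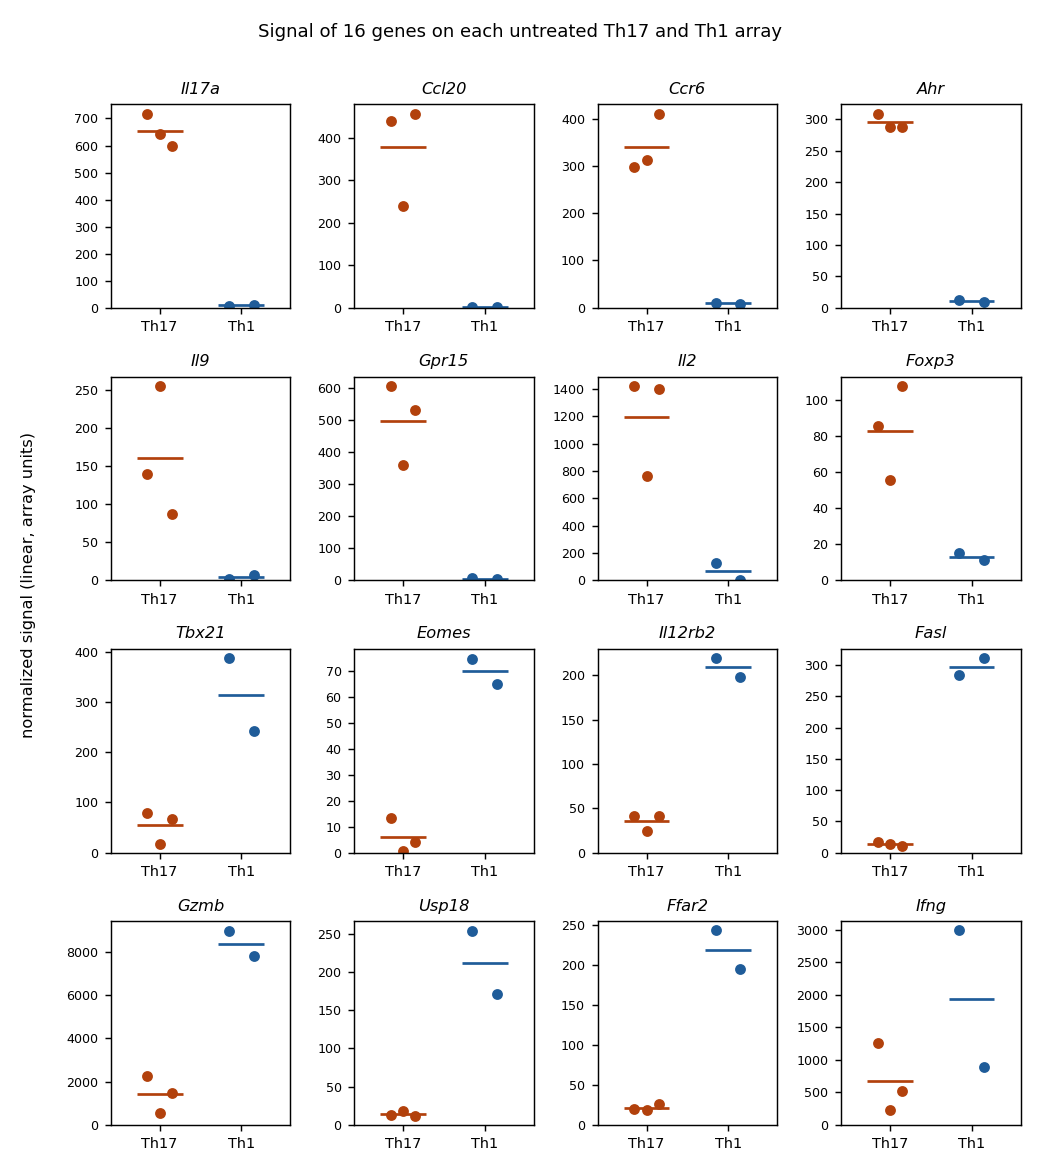
Normalized signal (y axis, linear array units starting at 0, own scale per gene) of 16 genes on each untreated array; points are arrays, orange-brown for the 3 Th17 and blue for the 2 Th1 arrays, and bars are group means. In 15 of the panels the groups lie apart, with Il17a at 598 to 716 in Th17 and 6.62 to 10.8 in Th1 cultures; the exception is Ifng, where Th17 replicate 1 at 1252 lies above Th1 replicate 2 at 887.

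On the Th1 side, 5 of 10 Th1 transcription factors tested were lower in Th17 cultures and none higher (4 lower without any 1 of the 5 arrays), with a list median of -1.03. Besides Tbx21 these were Eomes, Hopx, Hlx and Zeb2. Eomes, which encodes the other T-box factor of cytotoxic lymphocytes, read 13.2, 0.752 and 4.14 in Th17 cultures, against 74.6 and 64.8 in Th1 cultures. Its log2 difference was -3.26 ± 0.48 (adjusted p = 0.0017), and the Treg arrays read 190.0 and 212, above the Th1 arrays. Hopx, which encodes a homeodomain protein that T-bet induces in Th1 cells, read 732, 607 and 818 in Th17 cultures, against 3003 and 2483 in Th1 cultures, with a log2 difference of -1.93 ± 0.17 (adjusted p = 2.75e-05). Hlx, whose product acts with T-bet on Ifng, read 11.7, 12.9 and 4.42 in Th17 cultures, against 60.6 and 30.4 in Th1 cultures, and Zeb2, a repressor of memory fate, 13.3, 12.2 and 18.5 in Th17 cultures, against 44.2 and 38.99 in Th1 cultures. They differed by -1.94 ± 0.45 (adjusted p = 0.023) and -1.35 ± 0.29 (adjusted p = 0.016). Hlx did not pass without Th17 replicate 3, or without Th1 replicate 1 (adjusted p = 0.082 and 0.12). Zeb2 did not pass without Th17 replicate 1 or 2, without Th1 replicate 1 or 2, with signals as deposited, or with probe sets averaged (adjusted p = 0.051, 0.056, 0.056, 0.083, 0.088 and 0.091). Stat4, which carries the IL-12 signal, read 227, 201 and 242 in Th17 cultures, against 272 and 486 in Th1 cultures and did not pass (-0.70, adjusted p = 0.1), nor did Runx3 (-0.38, adjusted p = 0.43).

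Of 12 Th1 cytokine and receptor genes 3 were lower and 1 was higher (2 higher without Th1 replicate 1), with a list median of -0.42 (0.27 with signals as deposited, where the median of all genes was 0.62). Il12rb2, the inducible chain of the IL-12 receptor, read 41.6, 24.5 and 40.96 in Th17 cultures, against 219.6 and 198 in Th1 cultures, with a log2 difference of -2.49 ± 0.35 (adjusted p = 0.0013). Fasl, which encodes the death ligand, read 17.1, 13.7 and 11.03 in Th17 cultures, against 284 and 311 in Th1 cultures, with a log2 difference of -4.16 ± 0.32 (adjusted p = 8.53e-06). Havcr2, which encodes TIM-3, an inhibitory receptor of Th1 cells, read 7.83, 8.84 and 7.72 in Th17 cultures, against 55.1 and 24.3 in Th1 cultures, with a log2 difference of -1.84 ± 0.39 (adjusted p = 0.015), with Th17 means under the signal below which genes were not tested. Havcr2 did not pass without Th1 replicate 1 (adjusted p = 0.091). The higher member was Ifngr2, the signalling chain of the interferon gamma receptor, at 81.98, 93.4 and 104 in Th17 cultures, against 8.72 and 18.3 in Th1 cultures, with a log2 difference of 2.60 ± 0.39 (adjusted p = 0.0019). Ifng itself read 1252, 224 and 525 in Th17 cultures, against 2987 and 887 in Th1 cultures. The arrays overlapped, and its log2 difference of -1.62 ± 0.97 (adjusted p = 0.35) did not pass; it missed the threshold without any 1 of the 5 arrays too (adjusted p = 0.27 to 0.74). Tnf (1.12, adjusted p = 0.13) and Il18r1 (-0.59, adjusted p = 0.54) did not pass. Cd40lg, which belongs to the list of TNF family ligands and not to this one, did not pass either (-1.85, adjusted p = 0.16).

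Cytotoxic granule genes that passed were mostly lower in Th17 cultures. Of 14 tested 6 were lower and 1 higher in Th17 cultures (2 lower without Th1 replicate 1, 4 without Th17 replicate 2 or 3; 0 higher without Th17 replicate 1, 2 or 3 or without Th1 replicate 2), with a median of -1.68. Gzmb, the main granzyme of effector T cells, read 2280.0, 539 and 1456 in Th17 cultures, against 8974 and 7783 in Th1 cultures, with a log2 difference of -2.78 ± 0.46 (adjusted p = 0.0033). The Th17 arrays held a wide range, but the highest lay below both Th1 arrays. Gzme and Gzmd, granzymes of the same gene cluster, read 0.719, 0.646 and 0.513 in Th17 cultures, against 57.8 and 20.99 in Th1 cultures, and 1.27, 0.179 and 0.211 in Th17 cultures, against 58.3 and 8.91 in Th1 cultures, with log2 differences of -3.40 ± 0.67 (adjusted p = 0.0098) and -2.94 ± 0.70 (adjusted p = 0.026). Their probe sets may share sequence with neighbouring granzymes of that cluster, and the Th17 signals lay far under the signal below which genes were not tested. Serpinb6b and Serpinb9, inhibitors that protect cytotoxic cells from granule proteases, read 61.3, 62.5 and 48.5 in Th17 cultures, against 1065 and 589.8 in Th1 cultures, and 30.4, 11.7 and 30.97 in Th17 cultures, against 381 and 103 in Th1 cultures. They differed by -3.73 ± 0.24 (adjusted p = 3.52e-06) and -2.98 ± 0.56 (adjusted p = 0.0074). Gzme and Serpinb9 did not pass without Th1 replicate 1 (adjusted p = 0.058 and 0.051). Gzmd did not pass without Th17 replicate 1, 2 or 3, or without Th1 replicate 1 (adjusted p = 0.058, 0.08, 0.076 and 0.16). Gzma (0.93, adjusted p = 0.21) and the perforin gene Prf1 (-0.96, adjusted p = 0.34) did not pass; Prf1 read 154, 60.9 and 134 in Th17 cultures, against 406 and 112 in Th1 cultures.

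Of the chemokine genes, 7 were tested, with 2 higher, Ccl20 and Xcl1, and 1 lower (1 higher without Th17 replicate 1 or 3 or without Th1 replicate 2). Ccl5, which encodes RANTES and is made by cytotoxic and Th1 cells, read 38.8, 35.7 and 4.12 in Th17 cultures, against 732 and 410.3 in Th1 cultures, with a log2 difference of -4.61 ± 0.71 (adjusted p = 0.0021). Th17 replicate 3 read lowest, and the Treg arrays, at 1068 and 1460.0, lay above the Th1 arrays. Ccl3 read 2018, 542 and 1117 in Th17 cultures, against 1358 and 95.01 in Th1 cultures and did not pass (1.55, adjusted p = 0.37), the Th1 arrays being far apart. Of 13 ligand genes of the TNF family 2 were lower, Fasl and Tnfsf4, and 1 was higher, Tnfsf13b (1 lower without any 1 of the 5 arrays; 0 higher without Th17 replicate 1, 2 or 3 or without Th1 replicate 2). The counts of the chemokine and TNF family lists stand beside 2.99% of all genes tested that passed higher and 3.62% that passed lower. Tnfsf4, which encodes OX40 ligand, read 31.8, 33.5 and 35.5 in Th17 cultures, against 116 and 107 in Th1 cultures, with a log2 difference of -1.65 ± 0.44 (adjusted p = 0.042). Tnfsf4 did not pass without Th17 replicate 1, 2 or 3, without Th1 replicate 1 or 2, or with signals as deposited (adjusted p = 0.11, 0.11, 0.094, 0.11, 0.19 and 0.066), and missed the threshold under 15 of 25 alternatives in all. Tnfsf13b had a log2 difference of 1.64 (adjusted p = 0.039), and of 1.86 and 1.44 without Th1 replicates 1 and 2. Without any 1 of the Th17 replicates it lay under the lowest level tested and had no value. With the 5 arrays fitted alone after normalization across 14 its log2 difference was 0.14 (adjusted p = 0.82). It missed the threshold under 14 of 21 alternatives in all. Of 12 inhibitory and costimulatory receptors 4 were lower (1 without Th17 replicate 2 or without Th1 replicate 1 or 2) and 1, Nt5e, was higher (2 without Th1 replicate 1). Lag3, which encodes an inhibitory receptor for MHC class II, read 588, 316 and 563 in Th17 cultures, against 1233 and 1267 in Th1 cultures, with a log2 difference of -1.40 ± 0.31 (adjusted p = 0.017), and Cd28 709, 656 and 842 in Th17 cultures, against 1245 and 1168 in Th1 cultures, with a log2 difference of -0.72 ± 0.16 (adjusted p = 0.016). Lag3 did not pass without Th17 replicate 2, without Th1 replicate 2, or with signals as deposited (adjusted p = 0.059, 0.12 and 0.12). Cd28 did not pass without Th17 replicate 1 or 2, without Th1 replicate 1 or 2, with signals as deposited, or with probe sets averaged (adjusted p = 0.054, 0.066, 0.056, 0.083, 0.85 and 0.07). Pdcd1, which encodes PD-1, had a log2 difference of 0.07 and did not pass (adjusted p = 0.92).

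Interferon response genes were measured through lists for type I interferon and for interferon gamma. The ISRE, the sequence that binds IRF factors, was searched as GAAA, any 2 bases and GAAA on both strands of the same RefSeq windows. The promoters of 3 lower genes are shown with their matches in capitals. Bst2 encodes tetherin, which holds budding viruses at the cell surface, Gbp7 a guanylate-binding protein, and Ifih1 the RNA sensor MDA5.
Bst2 (chr8:71537423-71537722, minus strand): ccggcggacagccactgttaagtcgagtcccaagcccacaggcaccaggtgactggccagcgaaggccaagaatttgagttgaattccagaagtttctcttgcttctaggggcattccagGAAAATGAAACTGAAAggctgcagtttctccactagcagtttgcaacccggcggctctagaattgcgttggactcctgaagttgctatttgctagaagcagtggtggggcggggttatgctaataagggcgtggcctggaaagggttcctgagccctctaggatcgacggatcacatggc
Gbp7 (chr3:142530086-142530385, plus strand): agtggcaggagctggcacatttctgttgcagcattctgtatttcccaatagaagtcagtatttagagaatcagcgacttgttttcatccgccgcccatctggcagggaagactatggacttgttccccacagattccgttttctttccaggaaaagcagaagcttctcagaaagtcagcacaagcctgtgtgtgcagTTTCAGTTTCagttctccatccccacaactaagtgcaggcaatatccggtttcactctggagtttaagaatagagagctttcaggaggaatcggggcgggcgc
Ifih1 (chr2:62646206-62646505, minus strand): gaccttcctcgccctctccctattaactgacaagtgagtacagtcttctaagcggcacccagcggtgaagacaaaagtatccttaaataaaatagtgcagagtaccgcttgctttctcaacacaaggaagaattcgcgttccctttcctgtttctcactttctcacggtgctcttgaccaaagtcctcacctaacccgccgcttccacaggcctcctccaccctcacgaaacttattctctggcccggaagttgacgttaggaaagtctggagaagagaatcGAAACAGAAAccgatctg
The Bst2 window held 2 overlapping matches and the others 1 each. Windows with a match made up 3.03% of those of genes tested, 5.81% of those of genes that passed lower (24 of 413) and 4.01% of those of genes that passed higher (14 of 349). In the type I list 11 of 23 windows held a match, and in the interferon gamma list 9 of 20. Matches also stood in the windows of the granule inhibitor Serpinb9 and of Eomes, both lower, and in that of Gpr15, which was higher. The T-box motif AGGTGTGA stood in 3.39% of the windows of lower genes, 1.72% of those of higher genes and 0.955% of those of genes tested. Further motifs were searched in the same way. In the same order of sets, a STAT motif (TTC, any 3 bases and GAA) stood in 6.3%, 7.74% and 6.82% of windows. An AP-1 motif (TGA, any base and TCA) stood in 7.51%, 5.73% and 5.03%, and the CRE motif TGACGTCA in 2.18%, 1.43% and 3.04%. The sets differ in size and were drawn from the same arrays, so these shares are given as a description.

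Of 24 type I interferon response genes tested 6 were lower and none higher in Th17 cultures, with a median of -0.97. Usp18, which encodes the protease that removes ISG15 and limits the interferon receptor, read 12.9, 17.9 and 11.5 in Th17 cultures, against 254 and 171 in Th1 cultures, with a log2 difference of -3.65 ± 0.31 (adjusted p = 2.16e-05). The lowest Th1 array lay several fold above the highest Th17 array. The Treg arrays read 105 and 127, below Th1. Bst2 read 254, 232 and 272 in Th17 cultures, against 488 and 528 in Th1 cultures, a smaller log2 difference of -1.002 ± 0.15 (adjusted p = 0.0018). Ifih1 read 23.3, 6.29 and 25.6 in Th17 cultures, against 71.1 and 48.7 in Th1 cultures, and Xaf1, which encodes a partner of apoptosis regulators, 55.2, 21.2 and 34.2 in Th17 cultures, against 116 and 177 in Th1 cultures, with log2 differences of -1.70 ± 0.43 (adjusted p = 0.035) and -1.97 ± 0.43 (adjusted p = 0.016). Bst2 did not pass with signals as deposited (adjusted p = 0.4). Ifih1 did not pass without Th17 replicate 2, without Th1 replicate 1 or 2, or with signals as deposited (adjusted p = 0.077, 0.13, 0.11 and 0.078), and missed the threshold under 12 of 25 alternatives in all. Xaf1 did not pass without Th17 replicate 2 or 3, without Th1 replicate 2, with signals as deposited, or with probe sets averaged (adjusted p = 0.065, 0.051, 0.17, 0.05 and 0.096). Members with larger differences that did not pass were Oas3 (-2.21, adjusted p = 0.06) and Ifit3 (-1.70, adjusted p = 0.095), both with Th17 signals near or under the lowest level tested. The count of lower members was 2 without Th17 replicate 2 or Th1 replicate 2 and 3 without Th17 replicate 3. With signals as deposited it was 1 lower and 2 higher and the list median was -0.33, again against 0.62 for all genes.

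Of 20 interferon gamma inducible genes tested 5 were lower and none higher, with a median of -0.35 (0.21 with signals as deposited, where 1 was lower and 2 were higher). Gbp7 read 84.6, 48.5 and 73.1 in Th17 cultures, against 268 and 305 in Th1 cultures, with a log2 difference of -2.04 ± 0.37 (adjusted p = 0.0056), and 729.7 and 747 on the Treg arrays. The immunoproteasome gene Psmb9 read 737, 522 and 661 in Th17 cultures, against 1241 and 1853 in Th1 cultures, with a log2 difference of -1.26 ± 0.22 (adjusted p = 0.0056). Tap1, which encodes a subunit of the peptide transporter for MHC class I, read 586, 546 and 465 in Th17 cultures, against 796 and 1245 in Th1 cultures, with a log2 difference of -0.91 ± 0.20 (adjusted p = 0.017). Gbp7 did not pass without Th1 replicate 2 (adjusted p = 0.067). Psmb9 did not pass without Th1 replicate 2, or with signals as deposited (adjusted p = 0.094 and 0.12). Tap1 did not pass without Th17 replicate 3, without Th1 replicate 2, with signals as deposited, or with probe sets averaged (adjusted p = 0.069, 0.22, 0.54 and 0.54). No member of the list passed without Th1 replicate 2, and 3 were lower without Th17 replicate 3. The interferon gamma regulated factor Irf1 (-0.17, adjusted p = 0.76), the feedback gene Socs1 (0.42, adjusted p = 0.24) and Cd274, which encodes PD-L1 (-0.27, adjusted p = 0.56), did not pass.

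**Figure D3:**
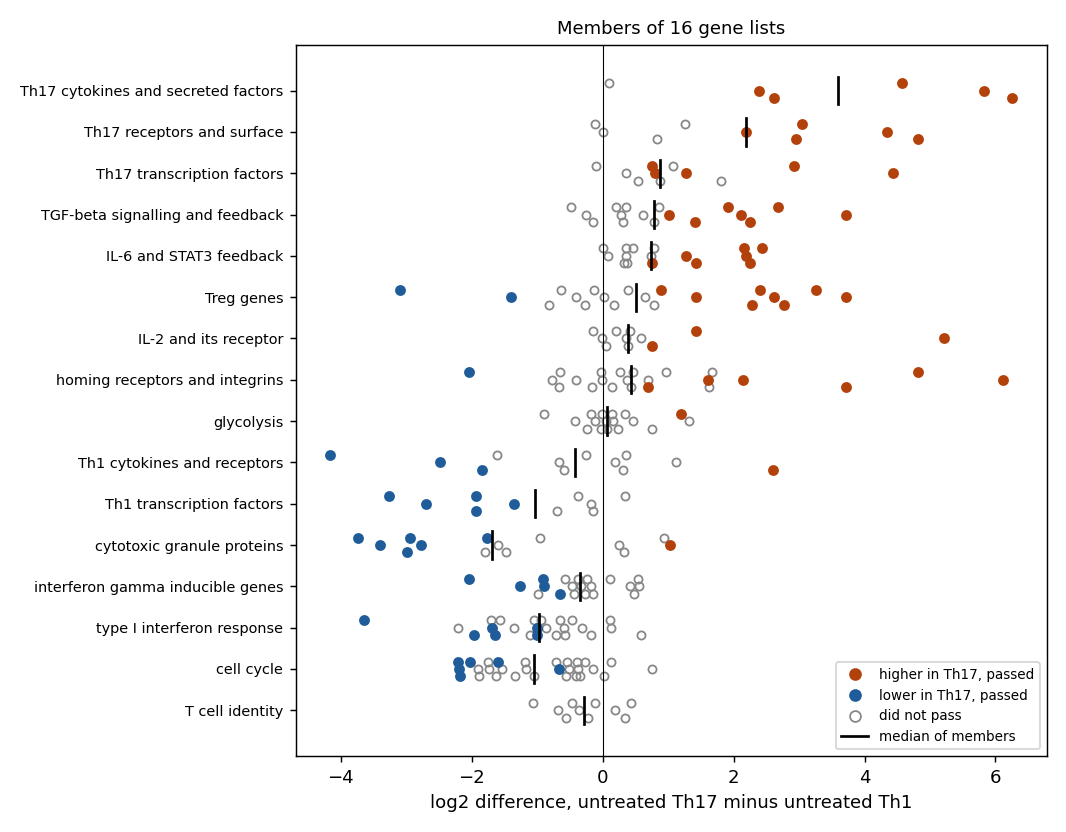
Log2 difference between untreated Th17 and untreated Th1 cultures (x axis) of the members tested in 16 gene lists (rows); filled points passed, orange-brown higher and blue lower in Th17, open points did not, and the black bar is the list median. The Th17 cytokine list has its median at 3.60 and the cytotoxic granule list at -1.68.

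Ffar2, the receptor for acetate and other short chain fatty acids, was lower in Th17 cultures, at 19.9, 18.3 and 26.6 in Th17 cultures, against 243 and 194 in Th1 cultures. Its log2 difference was -3.18 ± 0.38 (adjusted p = 0.000376), and the Treg arrays, at 20.4 and 29.03, lay close to the Th17 arrays. Other genes among the most strongly lower ones have no lineage role in the lists. Ms4a4c, which encodes a membrane-spanning protein, read 17.9, 11.5 and 11.5 in Th17 cultures, against 298 and 248 in Th1 cultures, with a log2 difference of -4.07 ± 0.45 (adjusted p = 0.000212). Mt3, which encodes a metal-binding metallothionein, read 16.8, 2.09 and 7.14 in Th17 cultures, against 102 and 116 in Th1 cultures, with a log2 difference of -3.48 ± 0.57 (adjusted p = 0.0032). Slc17a6, which encodes a vesicular glutamate transporter of neurons, read 7.14, 1.34 and 2.597 in Th17 cultures, against 33.2 and 83.97 in Th1 cultures, with a log2 difference of -3.16 ± 0.57 (adjusted p = 0.0058), with Th17 signals under the lowest level tested. Fam71b and Prag1 read 51.8, 45.1 and 42.6 in Th17 cultures, against 440.1 and 359.5 in Th1 cultures, and 5.82, 4.54 and 3.86 in Th17 cultures, against 90.3 and 37.6 in Th1 cultures, with log2 differences of -3.02 ± 0.24 (adjusted p = 1.09e-05) and -2.999 ± 0.37 (adjusted p = 0.000576). Slc17a6 did not pass without Th1 replicate 2 (adjusted p = 0.1).

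Cell cycle genes had a median log2 difference of -1.05, with 6 of 29 members tested lower in Th17 cultures and none higher. Cdk1, the mitotic kinase gene, read 144, 127 and 132 in Th17 cultures, against 408 and 961 in Th1 cultures, with a log2 difference of -2.20 ± 0.46 (adjusted p = 0.014). Bub1, a spindle checkpoint kinase gene, read 20.1, 13.04 and 18.4 in Th17 cultures, against 50.6 and 148 in Th1 cultures, and Ccnb2, a mitotic cyclin gene, 63.3, 61.4 and 55.2 in Th17 cultures, against 139.5 and 594 in Th1 cultures, with log2 differences of -2.18 ± 0.41 (adjusted p = 0.0079) and -2.21 ± 0.53 (adjusted p = 0.025). In all of these Th1 replicate 2 read well above Th1 replicate 1, while the Th17 arrays lay closer together. The count of lower members was 14 without Th1 replicate 1, 2 without any 1 of the Th17 replicates and 0 without Th1 replicate 2. Cdk1 did not pass without Th1 replicate 2 (adjusted p = 0.2). Bub1 did not pass without Th1 replicate 2, or with probe sets averaged (adjusted p = 0.12 and 0.13). Ccnb2 did not pass without Th17 replicate 1, 2 or 3, or without Th1 replicate 2 (adjusted p = 0.065, 0.071, 0.078 and 0.31). Mki67, a proliferation marker, read 166, 180.5 and 172 in Th17 cultures, against 349 and 739 in Th1 cultures and did not pass (-1.54, adjusted p = 0.064).

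The counts of the metabolic lists stand beside 2.99% of all genes tested that passed higher and 3.62% that passed lower. Of 17 glycolysis genes 1 was higher and none lower, with a median of 0.07 (-0.17 with arrays scaled to a common trimmed mean). Hk2, which encodes the inducible hexokinase, read 684, 1022 and 757 in Th17 cultures, against 373 and 333 in Th1 cultures, with a log2 difference of 1.19 ± 0.22 (adjusted p = 0.0068). Hk2 did not pass without Th1 replicate 2 (adjusted p = 0.075). The lactate dehydrogenase gene Ldha read 7622, 7945 and 8412 in Th17 cultures, against 6733 and 6835 in Th1 cultures and did not pass (0.24, adjusted p = 0.24). In the hypoxia list, 1 of 15 was higher, Adm, which encodes the peptide adrenomedullin, at 2.13 ± 0.46 (adjusted p = 0.016). Adm did not pass without Th17 replicate 1 or 3, or without Th1 replicate 1 or 2 (adjusted p = 0.054, 0.054, 0.069 and 0.063). Of 18 sterol and fatty acid synthesis genes 1 was lower (3 without Th1 replicate 1), Hmgcs1, which encodes an early enzyme of sterol synthesis, at 1139, 1006 and 1335 in Th17 cultures, against 2008 and 2616 in Th1 cultures, with a log2 difference of -0.99 ± 0.16 (adjusted p = 0.0025). Hmgcs1 did not pass with signals as deposited (adjusted p = 0.2). Of 21 genes that ATF4 controls or that carry amino acids 3 were higher and none lower (0 higher without Th17 replicate 1 or 3 or without Th1 replicate 2, 1 without Th17 replicate 2, 8 without Th1 replicate 1), among them Trib3, a stress-induced pseudokinase gene, at 1.36 ± 0.35 (adjusted p = 0.038). Trib3 did not pass without Th17 replicate 1, 2 or 3, without Th1 replicate 2, or with probe sets averaged (adjusted p = 0.11, 0.068, 0.1, 0.4 and 0.099).

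Markers of T cells and of other cells that such cultures could hold were measured beside these results. Each marker list is short, and of all genes tested 2.99% passed higher and 3.62% lower. Of 10 T cell identity genes none passed (limma, 0 in each direction; 1 was higher and 4 were lower at an unadjusted p under 0.05), and their summed signal was 18366 to 20049 on the Th17 arrays and 19357 and 19649 on the Th1 arrays. Cd4 read 259.8, 367 and 260.1 in Th17 cultures, against 448 and 836 in Th1 cultures and did not pass (-1.06, adjusted p = 0.068). Of the CD8 markers, Cd8a was higher, at 131, 22.1 and 66.2 in Th17 cultures, against 18.9 and 4.85 in Th1 cultures, with a log2 difference of 2.23 ± 0.61 (adjusted p = 0.046), while Cd8b1 read 47.98, 29.5 and 45.3 in Th17 cultures, against 43.7 and 31.7 in Th1 cultures (0.10, adjusted p = 0.89). Of 4 NK markers on the array 2 were bright enough to be tested and both were higher, the lectin receptor genes Klrd1 at 1.83 ± 0.39 (adjusted p = 0.015) and Klre1 at 2.02 ± 0.33 (adjusted p = 0.0033), with a summed list signal of 862.1 to 1314 against 298.5 and 306.8. Cd8a did not pass without Th17 replicate 1 or 3, without Th1 replicate 2, or with probe sets averaged (adjusted p = 0.15, 0.12, 0.4 and 0.051), and missed the threshold under 15 of 26 alternatives in all. Klrd1 did not pass without Th17 replicate 1 or 3, or without Th1 replicate 2 (adjusted p = 0.058, 0.051 and 0.11). Klre1 did not pass without Th1 replicate 2 (adjusted p = 0.055). Of 6 B cell markers 2 were tested and none passed (1 was higher at an unadjusted p under 0.05), at sums of 858.5 to 1431 against 585.9 and 741.8. Of 7 macrophage markers 3 were tested and Cd68 was lower, at sums of 74.0 to 91.8 against 101.3 and 165.1. Of 6 dendritic cell markers 2 were tested and Batf3, also a factor of activated T cells, was lower at -1.51 ± 0.27 (adjusted p = 0.0058), at sums of 301.2 to 410.6 against 873.6 and 1189.9. Of 5 mast cell markers 3 were tested and Kit, the stem cell factor receptor gene, was higher at 3.11 ± 0.39 (adjusted p = 0.000638), at sums of 76.3 to 117.2 against 21.1 and 32.8. No gamma delta T cell or erythroid marker on the array was bright enough to be tested. Cd68 did not pass without Th17 replicate 2 or 3, or without Th1 replicate 2 (adjusted p = 0.075, 0.064 and 0.27). Batf3 did not pass with signals as deposited (adjusted p = 0.084). The part of these cells in the results above was not tested.

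The arrays of acetate-treated cultures give the same contrast in samples that share no array with the untreated ones, though they share the cultures' recipes, the normalization and the pooled spread. Between Th17 and Th1 cultures that both received acetate at 10 mM, 571 genes passed, 351 higher (3.22%) and 220 lower (2.02%). Of the 721 genes that passed untreated, 194 passed there in the same direction and 3 in the opposite one; the 194 are 26.9% of the untreated and 34% of the acetate list. They comprised 125 of the 326 higher genes (38.3%) and 69 of the 395 lower ones (17.5%). The sign was shared by 282 of the 326 higher and 316 of the 395 lower genes, and by 57.3% of all genes tested. Protocols of the treated Th1 samples name acetone where the design text names sodium acetate.

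Il17a read 4211, 5610.0 and 3186 in Th17 cultures with acetate, against 13.7 and 13.03 in Th1 cultures with acetate, a log2 difference of 8.01 ± 0.33 (adjusted p = 3.42e-08). Ccr6 differed there by 5.90 ± 0.35 (adjusted p = 1.14e-06), Ccl20 by 4.92 ± 0.53 (adjusted p = 0.000215), Il9 by 6.96 ± 0.45 (adjusted p = 2.07e-06) and Ahr by 5.26 ± 0.34 (adjusted p = 2.07e-06). Fasl and Serpinb6b, lower untreated, differed by -3.30 ± 0.32 (adjusted p = 7.34e-05) and -4.58 ± 0.24 (adjusted p = 3.99e-07), and Il12rb2 by -2.02 ± 0.35 (adjusted p = 0.0049). These 8 genes passed in both contrasts with the same direction. Tbx21 came out just short, at -1.77 ± 0.49 (adjusted p = 0.054). Other genes that passed between untreated cultures did not pass with acetate. Foxp3 had a log2 difference of 0.03 (adjusted p = 0.97), Il10 of 0.01 (adjusted p = 0.997), Nrp1 of 0.06 (adjusted p = 0.93), Penk of -0.09 (adjusted p = 0.95) and Csf2 of -0.95 (adjusted p = 0.39). Ifng, which did not pass untreated, passed with acetate at -4.06 ± 0.97 (adjusted p = 0.029), reading 3162, 196 and 323 in Th17 cultures with acetate, against 8168 and 11800.0 in Th1 cultures with acetate. A test of the change in the subset difference itself passed for 4 genes (0.0366%), and none of the genes in this paragraph is among them.

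**Figure D4:**
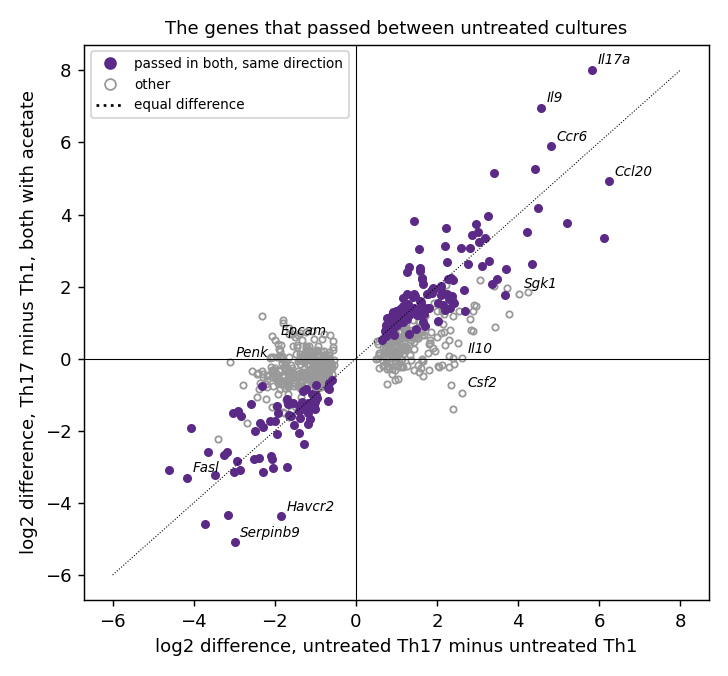
Each point is 1 of the 721 genes that passed between untreated cultures, placed by its log2 difference between untreated Th17 and untreated Th1 cultures (x axis) and between Th17 and Th1 cultures with acetate (y axis); filled points passed in both in the same direction, and the dotted line marks equal differences. Il17a lies at 5.82 untreated and 8.01 with acetate, and Csf2 at 2.62 and -0.95.

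Where a gene had more than 1 probe set, the others were read as a check on the one used. Of the 721 genes 352 had 585 other probe sets above the lowest level tested. Of these sets 530 shared the sign, 141 passed in the same direction and 1 in the opposite one. All 4 other probe sets of Cpd, the 2 of Tmem176a and the 1 of Ahr passed in the same direction. Rora, whose brightest probe set did not pass, had 5 others above that level, and all 5 passed, with log2 differences of 1.86 to 2.33 and each probe set tested on its own.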

How the data were processed

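Signals of untreated Th17 and Th1 cultures were read from a table of linear signal intensities, 1 for each probe set on each array, that the authors deposited. The submitters' processing notes name MAS5, without a version or a target level. Per the labels' protocols, total RNA was amplified and biotin labelled, and those of the Th1 samples name the Mouse 430 2.0 array. No detection calls were used, so signal above background was not assessed, and precision is limited by how few arrays there are.

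Probe sets with 1 gene symbol were kept (932 carry several and 9211 are unnamed), and symbols were checked through Entrez identifiers in a RefSeq table (34741 matched, 0 changed). From there log2(signal + 3) was quantile normalized across the 14 arrays; 3 rounds the 25th percentile of all signals. The brightest probe set by mean stood for each gene, and the 40th percentile of these means (log2 of 3.60, signal 9.11) was the lowest level tested, which left out 7277 genes. All 14 arrays were fitted with 6 group means and no covariates (8 residual degrees of freedom) in limma 3.58.1 under R 4.3.3, with eBayes and a trend. Every adjusted p in the text comes from limma, adjusted by Benjamini-Hochberg over the genes tested. A group reduced to 1 array by removing the other took its spread from the remaining groups. The method was tested on simulated data.

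Genes named are the 15 with the largest differences in each direction among those that passed with all arrays apart, a set of lineage genes, up to 6 members per list and direction that passed, defining members that did not, and genes taken by the test of the change with acetate. Not all are described. Each named gene was refitted under up to 26 alternatives. Members, the 37 lists and tests were chosen with earlier results of these data known. Promoter windows and their build come from RefSeq.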

Additional observations from a re-analysis of the deposited data

Results flagged for a closer look

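The Th17 minus Th1 difference itself changed with acetate for 4 genes, by limma's interaction test over all 10916 genes (1605 had an unadjusted p under 0.05). Timp2, which encodes an inhibitor of metalloproteinases, changed by 2.86 ± 0.43 (adjusted p = 0.043): with acetate it read 751, 989.5 and 745 in Th17 cultures with acetate, against 103 and 41.1 in Th1 cultures with acetate, and untreated 322, 292 and 313 in Th17 cultures, against 142 and 241 in Th1 cultures. Cox7a1, which encodes a subunit of mitochondrial cytochrome oxidase, changed by 2.76 ± 0.40 (adjusted p = 0.043), reading 73.9, 109 and 96.5 in Th17 cultures with acetate, against 24.8 and 11.3 in Th1 cultures with acetate, and untreated 16.6, 17.2 and 16.7 in Th17 cultures, against 22.9 and 27.8 in Th1 cultures. Epcam, an epithelial adhesion gene, changed by 2.50 ± 0.36 (adjusted p = 0.043). It was lower in untreated Th17 than Th1 cultures, at 18.9, 11.3 and 19.6 in Th17 cultures, against 69.5 and 76.9 in Th1 cultures, while with acetate it read 51.3, 58.4 and 35.5 in Th17 cultures with acetate, against 34.3 and 30.6 in Th1 cultures with acetate. The untreated difference of Epcam did not pass with probe sets averaged (-0.74, adjusted p = 0.063). Lrmp, a lymphoid membrane protein gene, changed by 1.55 ± 0.23 (adjusted p = 0.043), at a difference of -2.31 untreated and -0.76 with acetate. None of the 4 adjusted p-values lies far from the threshold, and arrays scaled to a common trimmed mean called 0 genes. A replicate block also gave 0, as did leaving out any 1 of the untreated Th17 arrays. Without replicates 1, 2 and 3 of Th17 with acetate the count was 32, 0 and 12.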

How the results depend on the processing

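Without any 1 of the 14 arrays the count between untreated cultures was 218 to 1011, with 125 to 494 higher and 93 to 550 lower. Signals as deposited gave 3025, with 2906 higher and 119 lower; there all genes shifted by 0.62. Averaging the probe sets of a gene gave 254 lower genes. Apart from these and the replicate block, the alternatives for these counts stayed within 1.5 times. The count with acetate was 168 to 1171 without any 1 array, and that of genes whose difference changed with acetate 0 to 525, 11 with signals as deposited and 0 with arrays scaled to a common trimmed mean. Replicate numbers are not said to pair samples, and deviations of same-numbered Th17 and Th1 control arrays correlated at 0.082 and 0.052, with -0.5 to 0.16 over all 31 same-numbered pairs. With a replicate block the counts were 397 untreated (191 higher, 206 lower), 326 with acetate and 0 for the change. Of 119 named genes with a value 114 passed, 48 of them also without any single array and 41 under every alternative; Th1 replicate 2 was needed by 58. An alternative in which a gene was not tested did not count against it in the 48 and the 41. With the lowest level tested raised to the 60th percentile, 92 of the 119 had a value. The 1 named gene whose direction turned was Sh2d1a, at 0.044 with signals as deposited. Beyond what is said beside each result, the cause of these changes was not tested.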
